A study of Mus musculus with 44 samples.

Results

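The 35 genes described here are transcripts by which blood cells other than plasma cells are recognised, measured in sorted mouse plasma cells. They were taken by name from a table of 54960 genes, with no use of the measured values: 10 of neutrophils, 8 of the red cell lineage, 8 of macrophages, 7 of T and NK cells and 2 of basophils. Their levels were read in 43 RNA-seq libraries, in 12 groups of 3 or 4 libraries. The question was in which libraries such transcripts were found, and whether they differed with sort, organ, day or age.

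All mice carried the genotype that the labels call BEC-YFP, the mice behind the comparison libraries included; it is known as a reporter in which tamoxifen, acting on a Cre recombinase made under the control of Blimp-1, permanently switches on YFP. Cells were taken by FACS as CD138high B220- plasma cells, separately as YFP+ (labelled LLPC, long-lived plasma cells) and YFP- (labelled Bulk PC), from bone marrow and spleen. Tamoxifen had been given 5 or 90 days earlier. The day 5 mice were 24 weeks old at treatment, and the day 90 mice were either 24 weeks (middle-aged) or 6 to 8 weeks (young). A library is named below by organ, sort, day, age and mouse, and a number such as M2 names different animals in the 24-week and the young set. At day 5 the titles give a date (07-26, 09-01, 09-15 or 09-29) in place of a mouse number, with a mouse number beside 09-29 alone; libraries of 1 date are treated below as 1 mouse, which the labels do not state. The sort markers given are CD138 and B220, and a YFP- cell can be an older cell that did not recombine as well as one formed after treatment. A further marrow library of mouse 09-15, whose title and cell type label disagree, was put in no group.

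The libraries held the transcripts of plasma cells. Between 6643295 and 12663103 counts were assigned per library (median 9586168), and Jchain alone, which links IgM and IgA subunits, made up 19.9 to 46.2% of them, since immunoglobulin genes had been left out of the table. Sdc1, which encodes CD138, was at 149 to 909 CPM (counts-per-million, with library totals scaled by the TMM method), Xbp1 at 6009 to 14986, Prdm1 at 61.6 to 197, Irf4 at 113 to 349, Mzb1 at 3267 to 6960 and Tnfrsf17 at 298 to 890 CPM in the 43 libraries. Against this, the 35 genes together took 0.00213 to 0.737% of the counts (median 0.0400%), or 20.1 to 6859 CPM. A limit of 3 counts corresponds to 0.234 to 0.439 CPM, and levels under it rest on too few counts to be told from 0. These limits cover counting error only, since no molecular identifiers are named in the labels.

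As background, each lineage has abundant transcripts that mark its cells. Immature neutrophils in marrow fill primary granules with Mpo, Elane and Prtn3 and later secondary granules with Ngp, Camp, Ltf and Lcn2, while mature neutrophils are rich in S100a8 and S100a9, the subunits of calprotectin. Red cell precursors make globins, carbonic anhydrases (Car1, Car2), the first enzyme of haem synthesis (Alas2) and the transcription factor Klf1, and reticulocytes still hold globin mRNA after the nucleus is gone. Macrophages of marrow and spleen make the complement subunits C1qa, C1qb and C1qc, and in both organs plasma cells lie close to myeloid cells.

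The 4 globin genes summed to up to 3413 CPM in 1 library, and their sequences show how far they can be read as separate genes. The 120 bases directly before the start of each gene are given 5′ to 3′ from RefSeq, build GRCm38.p6, at chr7:103827929-103828048 on the minus strand for Hbb-bs, chr7:103813924-103814043 on the minus strand for Hbb-bt, chr11:32283552-32283671 on the plus strand for Hba-a1 and chr11:32296372-32296491 on the plus strand for Hba-a2. Capitals mark CACCC, the core of the box that Klf1 is known to bind, CCAAT (written ATTGG where it lies on the other strand) and ATATAA, a form of the core promoter element found near many start sites.
Hbb-bs: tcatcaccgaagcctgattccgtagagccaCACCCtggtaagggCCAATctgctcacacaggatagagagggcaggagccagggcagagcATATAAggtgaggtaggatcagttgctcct
Hbb-bt: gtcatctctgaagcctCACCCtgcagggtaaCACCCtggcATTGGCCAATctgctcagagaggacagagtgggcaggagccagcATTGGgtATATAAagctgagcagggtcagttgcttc
Hba-a1: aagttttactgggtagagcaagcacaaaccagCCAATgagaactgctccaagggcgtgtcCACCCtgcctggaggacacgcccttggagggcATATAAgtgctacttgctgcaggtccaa
Hba-a2: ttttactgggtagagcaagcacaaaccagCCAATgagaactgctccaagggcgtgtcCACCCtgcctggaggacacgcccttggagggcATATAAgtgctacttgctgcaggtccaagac
In each of them ATATAA lay nearest to the start, from base -31 at Hba-a2 to base -28 at Hba-a1, with CCAAT and CACCC upstream of it. Searched on both strands over 300 bases (250 before to 50 after the start), CACCC was held by 57.5% of 32851 RefSeq promoter windows, CCAAT by 37.4%, ATATAA by 9.82% and all 3 by 1.84%. Of the 28 members with such a window, the 4 globins and Gzma held all 3. A match is a description of the sequence and not a shown binding site. The windows of Hba-a1 and Hba-a2 were identical over 297 aligned bases, and those of Hbb-bs and Hbb-bt were 74.7% identical. The transcripts of Hba-a1 and Hba-a2 matched at 537 of 538 aligned bases and shared 67.5% of the 50-base windows of Hba-a1, while those of Hbb-bs and Hbb-bt matched at 580 of 626. Counts of the individual globins are therefore uncertain, and their sum is used below. Of the other members, Lyz2 shared 15.4% of its 50-base windows with other genes, chiefly Lyz1, and Car1 shared 13.4%; all further members shared under 1%.

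Most members were sporadic. Only Hbb-bs, Hba-a1, Lyz2 and Gzma had a count in every library, 11 members were at 0 in more than 21 of the 43 libraries, and 25 held over 50% of their summed CPM in 3 libraries. The libraries that stood apart differed between lineages. Marrow YFP+ day 90 24-week M2 held the most of 6 of the 10 neutrophil members, spleen YFP- day 5 07-26 the most of 7 of the 8 macrophage members, and marrow YFP- day 5 07-26 the most of both basophil members. Spleen YFP- day 5 07-26 also had the lowest Sdc1, 149 CPM, followed by spleen YFP- (190 CPM) and marrow YFP- (238 CPM) of 24-week mouse M2; leaving these 3 out changed no count of members passing a test.

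**Figure D1:**
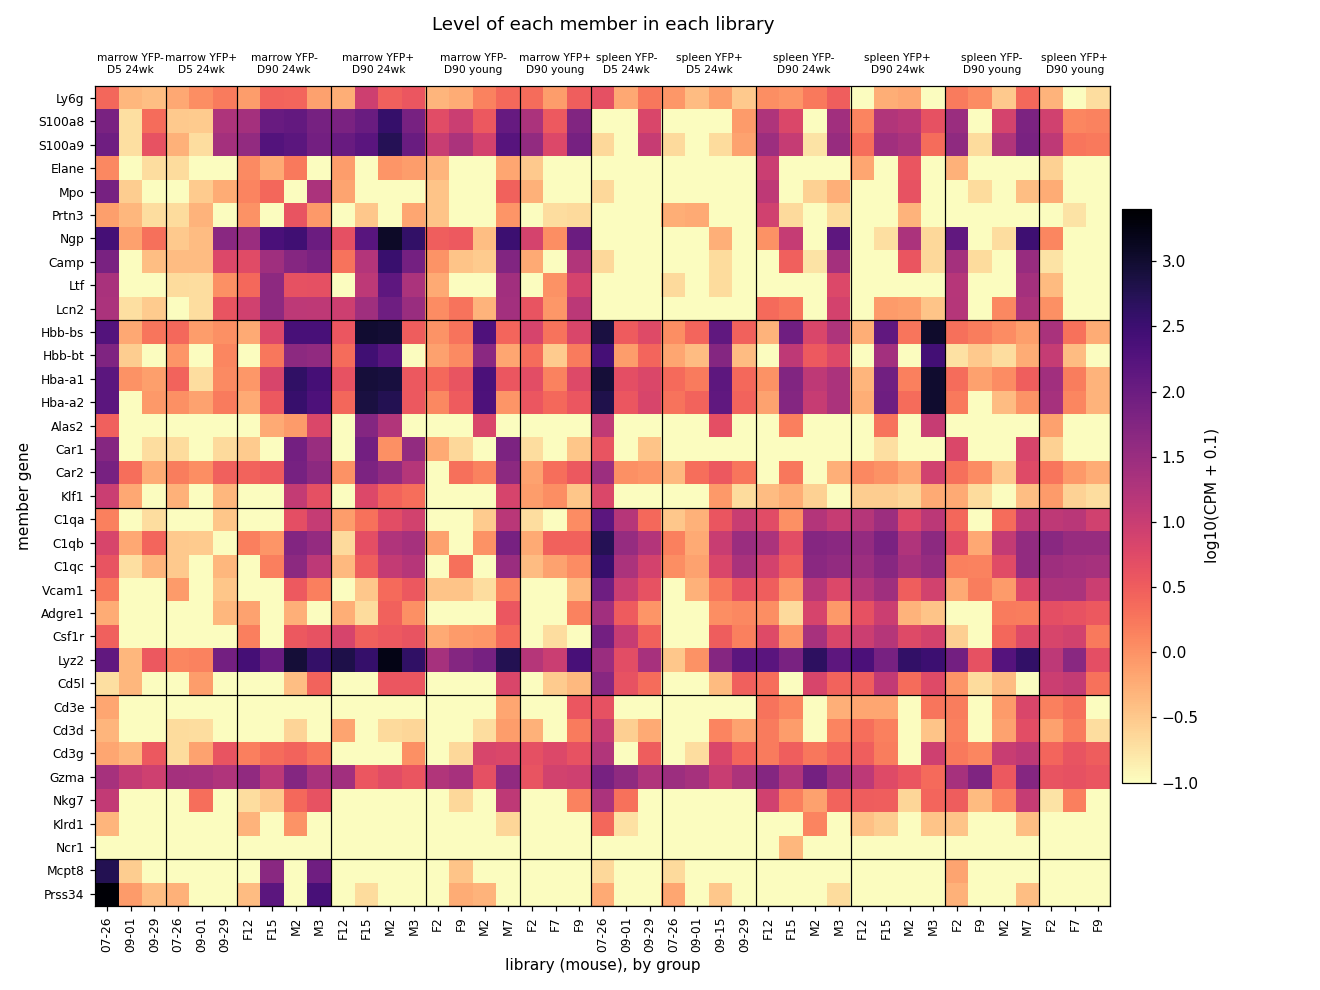
Level of each of the 35 members (rows, ordered by lineage) in each of the 43 grouped libraries (columns, by group and mouse), as log10(CPM + 0.1); darker is higher. Single columns carry many members of 1 lineage, such as marrow YFP+ day 90 24-week M2 for neutrophil genes, while Gzma and Lyz2 fill whole rows.

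Differences between groups were tested with edgeR's quasi-likelihood test on the rounded counts of 12457 genes, with p-values adjusted over all of them by the Benjamini-Hochberg method and called under 0.05. Of the 35 members, 32 entered the test; Prtn3, Klrd1 and Ncr1 were too low. As a member enters through any group in which it is high, the counts below describe the members tested and not the list as a whole. In bulk libraries such as these, fewer cells of a type and less RNA per cell cannot be told apart.

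In spleen at day 90, 2 members fell in YFP+ relative to YFP- cells, Gzma and Ly6g, and none rose; over all genes tested, 3.53% were called (2.38% lower, 1.15% higher). The median log2 difference over the tested members was -0.51, against -0.01 over all genes, and -0.17 with groups at 0 counts set to 3 counts. At an unadjusted p under 0.05 were 10 of the 32 members, against 15.3% of all genes, and DESeq2's Wald test called 7 members, against 2.94% of 22317 genes. Among these 7, Prss34 had a DESeq2 log2 difference of -16.57, although the basophil sums of these libraries were at most 1.02 CPM. That call is not read as a difference. Between marrow and spleen YFP+ cells at day 90, Ly6g was higher and Vcam1 lower in marrow, where 0.193% of all genes were called (0.0963% higher and 0.0963% lower). At an unadjusted p under 0.05 were 14 members, against 7.39% of all genes, and DESeq2 called 7, against 0.435%. The 7 spleen YFP+ libraries of day 90 enter both comparisons, so the Ly6g results are not independent of each other.

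In the other 11 comparisons edgeR and limma voom called 0 of the 32 members. Counts of members at an unadjusted edgeR p under 0.05 and counts called by DESeq2 are given here, each followed in parentheses by the share of all genes past the same rule. Between YFP+ and YFP- marrow at day 90, 3 members were at an unadjusted p under 0.05 (8.67%) and DESeq2 called 3 (0.596%), while edgeR called 0.458% of all genes. The 3 DESeq2 calls were Nkg7 (log2 difference -12.07), Mcpt8 (-20.74) and Prss34 (-14.91), with basophil sums of at most 0.109 CPM in the YFP+ libraries. At day 5 the same contrast had 6 members at an unadjusted p under 0.05 in marrow (2.04%; DESeq2 0, 0.0224%) and 10 in spleen (15.0%; DESeq2 5, 0.143%), with 0% of all genes called by edgeR in either organ. Between marrow and spleen, YFP- cells of day 90 had 11 members at an unadjusted p under 0.05 (8.65%; DESeq2 2, 0.305%), with 0.136% of all genes called by edgeR. YFP+ cells of day 5 had 6 (2.39%; DESeq2 4, 0.0403%), with 0% called. Of these 4, Elane, Mpo and Car1 had DESeq2 log2 differences of 15.33 to 16.73 between groups near 0. Primary granule genes summed to at most 0.603 CPM in the marrow and 0.514 CPM in the spleen libraries. Car1 and Klf1 summed to at most 0.525 and 0.774 CPM. Between the sorts in spleen at day 5, DESeq2 gave 17.04 for Ngp, with secondary granule sums of at most 0.664 CPM. Such calls rest on few counts and are not read as differences. YFP- cells of day 5 had 15 (17.5%; DESeq2 5, 1.04%), with 0.00803% called.

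Between day 90 and day 5 in 24-week mice, 15 members were at an unadjusted p under 0.05 in marrow (19.0%; DESeq2 10, 2.94%), with 0.530% of all genes called by edgeR. In spleen there were 8 (5.98%; DESeq2 6, 0.152%), with 0.0241% called. Between 24-week and young mice at day 90 there were 11 in marrow (6.59%; DESeq2 2, 0.0986%), with 0.0161% called, and 6 in spleen (15.3%; DESeq2 4, 0.542%), with 0.169% called. For the difference of the YFP contrast between the organs there were 8 (3.60%; DESeq2 2, 0.0358%), with 0% called. As shares of the 32 members, the 3 of marrow at day 90 are 9.38% and the 6 between ages in spleen 18.8%, near the 8.67% and 15.3% of all genes. The day 5 comparisons with spleen YFP- cells turned on 1 library. Without spleen YFP- day 5 09-29, which leaves 2 libraries there, edgeR called 1656 genes (12.8%) between YFP+ and YFP- spleen in place of 0, 5 members among them (C1qb, Vcam1, Csf1r, Cd5l and Nkg7, each lower in YFP+), and 1983 genes (15.3%) between marrow and spleen YFP- cells in place of 1, 8 members among them (the macrophage members other than Lyz2, each lower in marrow, and Prss34, higher).

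Neutrophil transcripts were more often high in marrow than in spleen. The 10 members summed to at least 100 CPM in 12 of 21 marrow libraries and 3 of 22 spleen libraries, and marrow was the higher in 18 of 21 pairs of libraries from the same mouse and sort. By group, the median sum in marrow was 2.71 CPM in YFP+ and 9.18 in YFP- cells at day 5, 594 and 496 in 24-week mice at day 90, and 71.2 and 28.8 in young mice at day 90. In spleen the same medians were 1.45 and 4.74, 25.3 and 58.0, and 2.96 and 140 CPM. Of the 9 members tested, 8 had a positive log2 difference between day 90 and day 5 in marrow, where 5 were at an unadjusted p under 0.05 (19.0% of all genes were) and the lowest adjusted p was 0.123. Their median difference there was 3.16 on the log2 scale, against -0.00 over all genes. In spleen 8 of the 9 were also positive between these days, and 7 were at an unadjusted edgeR p under 0.05 (5.98% of all genes were). The median in spleen was 5.82, or 2.65 with groups at 0 counts set to 3 counts, against -0.00, and the lowest edgeR adjusted p was 0.291.

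**Figure D2:**
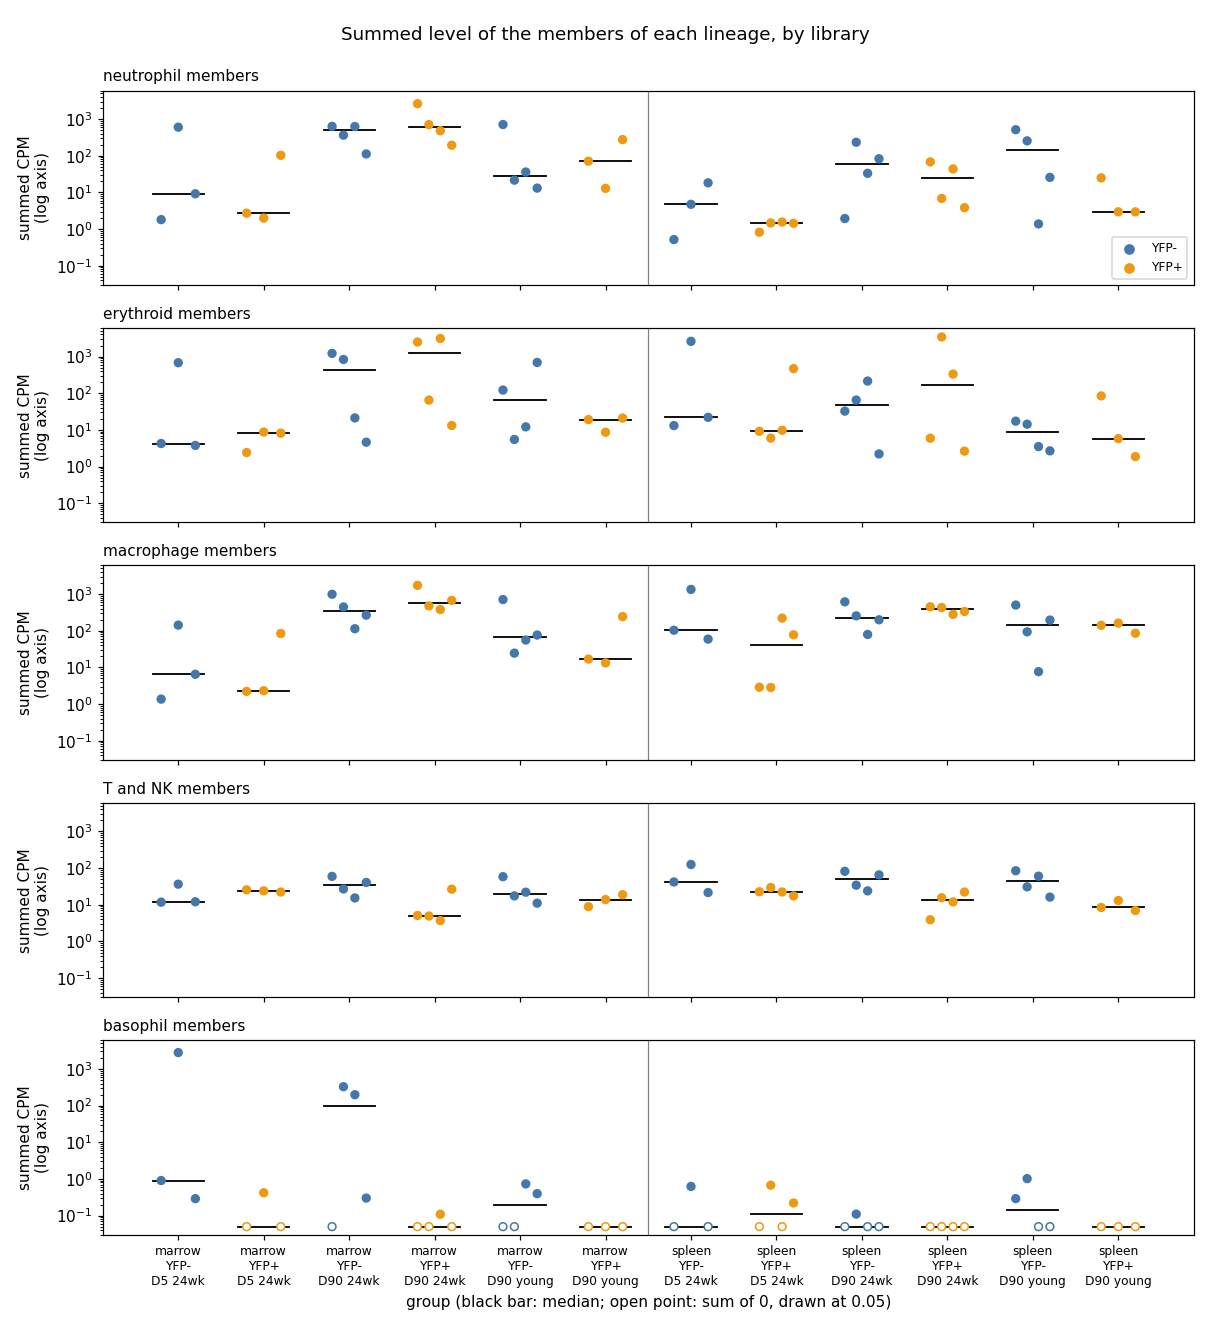
Summed CPM of the members of each lineage in every library, on a log axis, by group; blue is YFP-, orange YFP+, the black bar is the group's median, and an open point is a sum of 0 drawn at 0.05. In several groups the sums of neutrophil, erythroid and macrophage members spread over more than a power of 10, whereas the T and NK sums of YFP+ day 90 libraries lie below most YFP- ones.

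Among the neutrophil members, the secondary granule genes held the larger part of the highest sum. In marrow YFP+ day 90 24-week M2, Ngp reached 1153 CPM, S100a9 552, S100a8 363, Camp 336, Ltf 137 and Lcn2 93.2 CPM, which gave a neutrophil sum of 2638 CPM. Ngp encodes a neutrophilic granule protein, Camp the antimicrobial peptide cathelicidin, Ltf the iron-binding lactoferrin and Lcn2 the siderophore-binding lipocalin 2. In the marrow YFP+ libraries of the other 24-week mice Ngp was at 397 CPM (M3), 159 (F15) and 4.45 (F12), and in those of young mice at 101 (F9), 7.14 (F2) and 1.00 CPM (F7). The marrow YFP+ library of F12 thus had almost no Ngp beside 109 CPM of S100a9. In the marrow YFP- library of that mouse there were 305 counts of Ngp beside 238 of S100a8.

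S100a9 had a count in 41 of 43 libraries and a median of 12.9 CPM. Its level in marrow at day 90 was 104 to 552 CPM in YFP+ and 37.4 to 180 CPM in YFP- cells of 24-week mice (n = 4 each), and 6.02 to 74.6 (n = 3) and 7.45 to 165 CPM (n = 4) in young mice. The 24-week YFP+ libraries lay above the young YFP+ ones, and the YFP- ages overlapped. At day 5 the marrow libraries were at 0.420, 0.101 and 23.8 CPM (YFP+) and 87.5, 0.0904 and 4.15 CPM (YFP-), in the order 07-26, 09-01 and 09-29. S100a9 and S100a8 kept a ratio of 1.06 to 2.41 over the 24 libraries with at least 50 counts of S100a8. Camp to Ngp was looser, at 0.0714 to 0.659 over 17 libraries with at least 50 counts of Ngp.

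The primary granule genes, made at an earlier stage, were highest in other libraries. Mpo, the myeloperoxidase, was at 0 in 24 libraries and reached 74.2 CPM in marrow YFP- day 5 07-26, 20.3 CPM in marrow YFP- day 90 24-week M3 and 12.4 CPM in spleen YFP- day 90 24-week F12. The serine proteases Elane (9.75 CPM) and Prtn3 (8.14 CPM) were highest in that spleen library of F12, where Ngp was at 0.904 CPM and Camp and Ltf at 0. Marrow YFP+ day 90 24-week M2, with the largest neutrophil sum, had 0 counts of Mpo.

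Ly6g, the surface protein used to identify mouse neutrophils, gave the neutrophil results that passed the test. Most neutrophil members had the same directions, but they were measured in the same libraries and are not independent of Ly6g or of each other. Between the sorts in spleen at day 90 all 9 members tested had a negative difference, 5 at an unadjusted p under 0.05, with a median of -2.74 on the log2 scale against -0.01 over all genes (15.3% of which were at that p). Between marrow and spleen YFP+ cells at day 90, 7 of the 9 had a positive difference, each at an unadjusted p under 0.05, with a median of 3.69 against -0.01 (7.39%). The gene (ENSMUSG00000022582) lies at chr15:75155240-75159126 on the plus strand of GRCm38, and was low throughout, at 0 to 8.73 CPM. In spleen YFP+ cells at day 90 it was at 0.539 (M2), 0 (M3), 0.455 (F15) and 0 CPM (F12) in 24-week mice and at 0.400 (F2), 0 (F7) and 0.0984 CPM (F9) in young mice, which is 0 to 5 counts a library. In spleen YFP- cells it was at 1.61 (M2), 2.96 (M3), 0.822 (F15) and 1.00 CPM (F12) in 24-week mice and at 2.32 (M7), 1.53 (F2), 1.06 (F9) and 0.206 CPM (M2) in young mice. All but the young M2 library of the YFP- sort lay above every YFP+ library, and YFP+ was the lower in 6 of 6 mice with both sorts. The log2 difference was -2.74 ± 0.76 (SE; edgeR adjusted p = 0.0298, n = 7 and 8). In marrow the order was the other way: YFP+ cells at day 90 had 2.86 (M2), 3.70 (M3), 8.73 (F15), 0.456 (F12), 2.14 (F2), 0.703 (F7) and 3.02 CPM (F9), YFP- cells had 0.381 to 2.66 CPM, and YFP+ was the higher in 5 of 6 mice. The neutrophil sum was the higher in YFP+ cells in 5 of 6 mice in marrow and in 3 of 6 in spleen.

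Marrow exceeded spleen for Ly6g in 7 of 7 mice among YFP+ cells at day 90 (log2 difference 3.69 ± 0.79, edgeR adjusted p = 0.0300) and in 4 of 8 among YFP- cells. The difference of the YFP contrast between the organs was 3.78 ± 0.99 on the log2 scale and did not pass (edgeR adjusted p = 0.787; 0.0885 with mouse as a block). In single libraries the share of Ly6g in the neutrophil sum differed: in spleen YFP- day 5 07-26 it was at 4.37 of a neutrophil sum of 4.74 CPM, with S100a8 and Ngp at 0, and in marrow YFP+ day 90 24-week M2 it was at 2.86 CPM beside 363 CPM of S100a8. Both Ly6g results rest on few counts. The spleen result was lost without any 1 of spleen YFP+ 24-week M3 (adjusted p = 0.0604), 24-week F12 (0.0557), young F7 (0.111) or young F9 (0.0965), or spleen YFP- 24-week M3 (0.0690) or young M7 (0.0737), and the organ result without spleen YFP+ 24-week M3 (0.0537), young F7 (0.107) or young F9 (0.118), or marrow YFP+ 24-week F15 (0.0702), young F2 (0.0566) or young F9 (0.0980).

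Among 12 further neutrophil genes, 1 fell in spleen YFP+ cells at day 90. Itgam, which encodes the integrin chain CD11b of neutrophils, macrophages and NK cells, was at 0.125 to 1.36 CPM (median 0.404, n = 7) in YFP+ and 3.61 to 46.6 CPM (median 17.2, n = 8) in YFP- libraries, without overlap (log2 difference -5.09 ± 0.72, edgeR adjusted p = 1.22e-05). Its highest level was in spleen YFP- day 90 24-week M2, a library with 0 counts of S100a8 and Ngp and the highest Gzma. With mouse as a block Itgam also fell in marrow YFP+ cells at day 90 (-2.36, edgeR adjusted p = 0.00142). Csf3r, the receptor of the granulocyte growth factor G-CSF, rose between day 5 and day 90 in marrow (5.69 ± 1.29, edgeR adjusted p = 0.0441).

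Globin transcripts were found with and without Car1 and Klf1. The 4 globins summed to at least 100 CPM in 11 libraries, 6 from marrow and 5 from spleen, while Car1 and Klf1 summed to at least 10 CPM in 6 marrow libraries and 0 of 22 spleen libraries. Spleen YFP- day 5 07-26 lay just under that level at 9.98 CPM, with 2548 CPM of globin. Both levels were passed in 4 libraries, all from marrow: YFP- day 5 07-26, YFP- day 90 24-week M2 and M3, and YFP+ day 90 24-week F15. Globin without Car1 and Klf1 at these levels was found in 7 libraries, and Car1 with Klf1 without globin in 2.

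Spleen YFP+ day 90 24-week M3 had 3413 CPM of globin and 0.499 CPM of Car1 and Klf1, with 10.5 CPM of Alas2 and 7.99 of Car2, and marrow YFP- day 90 young M2 had 683 and 0 CPM, with 6.36 CPM of Alas2. Spleen YFP- day 5 07-26 had 96 counts of Alas2 and 29.1 CPM of Car2. Marrow YFP+ day 90 24-week F15 had 2907 CPM of globin with 88.6 CPM of Car1 and Klf1. At the other end, marrow YFP- day 90 young M7 had 7.43 CPM of globin beside 71.1 CPM of Car1 and Klf1, and marrow YFP+ day 90 24-week M3 had 39.2 CPM of Car1 and Klf1 beside 3.43 CPM of Hba-a1 and 3.15 CPM of Hbb-bs. Levels of 100 and 10 CPM were chosen after the values were seen, to describe them.

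**Figure D3:**
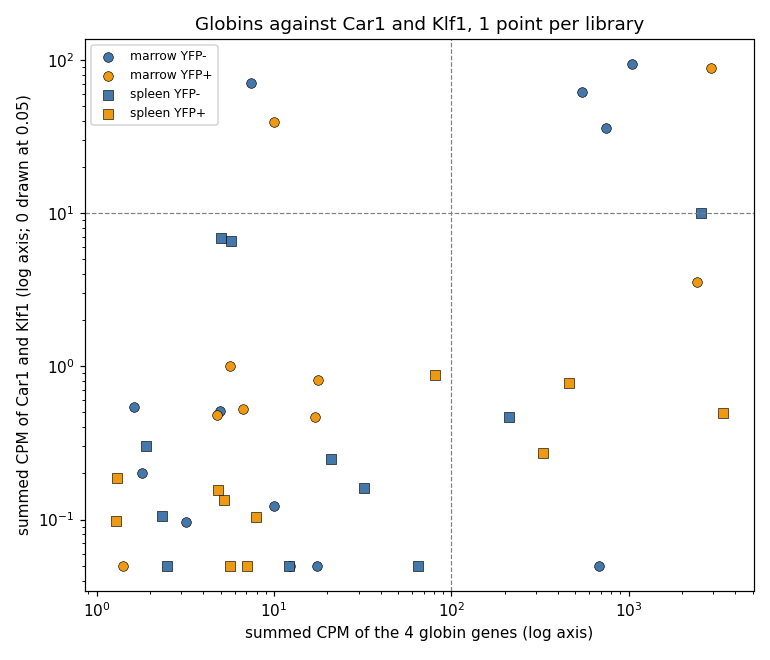
Summed CPM of the 4 globins (horizontal, log axis) against the sum of Car1 and Klf1 (vertical, log axis) in the 43 libraries; circles are marrow, squares spleen, blue YFP-, orange YFP+, and dashed lines mark 100 and 10 CPM. Above the horizontal line lie 6 marrow libraries, 2 of them left of the globin line, and below it to the right lie 7 libraries from both organs.

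Hbb-bs, an adult beta globin, was at 0.402 to 1060 CPM (median 2.70). Hba-a1, an adult alpha globin, was at 0.101 to 1037 CPM (median 3.58), and both had a count in all 43 libraries. In marrow YFP+ cells of 24-week mice at day 90, Hbb-bs was at 920 (M2), 3.15 (M3), 1009 (F15) and 3.65 CPM (F12), and in spleen YFP+ cells of the same mice at 1.75, 1060, 128 and 0.469 CPM. Mouse M2 was thus high in marrow and low in spleen and mouse M3 low in marrow and high in spleen, within 1 sort. Over the 21 same-mouse same-sort pairs the globin sum was higher in marrow in 11 and lower in 10. Alpha and beta chains kept step, with Hba-a1 to Hbb-bs at 0.644 to 1.97 over 18 libraries with at least 50 counts of Hbb-bs. Counts of Hbb-bs exceeded those of Hbb-bt, another beta globin, 1.98 to 7.16 times over 13 libraries with at least 50 counts of Hbb-bt. That ratio is uncertain, as Hbb-bs shared 57.5% of its 50-base windows with Hbb-bt.

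Alas2 was at 0 in 30 libraries and highest in marrow YFP+ day 90 24-week F15, at 53.1 CPM, followed by 17.5 CPM in marrow YFP+ day 90 24-week M2, a library with 3.57 CPM of Car1 and Klf1. Alas2 to Hbb-bs was at 0 to 0.0877 (median 0.0155) over 18 libraries with at least 50 counts of Hbb-bs. Car1 reached 82.6 CPM in marrow YFP+ day 90 24-week F15 and in marrow YFP- day 90 24-week M2. Car2, a carbonic anhydrase also made outside the red cell lineage, reached 76.9 CPM in that YFP- library of M2. Klf1 did not exceed 11.4 CPM, reached in the same YFP- library. No erythroid member passed in any of the 13 comparisons (edgeR; DESeq2 and unadjusted counts over all members are given above). All 8 had positive differences in marrow between day 90 and day 5 (median 4.66 on the log2 scale, 4.16 with groups at 0 set to 3 counts, against -0.00 over all genes; lowest adjusted p 0.155) and between 24-week and young mice (median 3.97, 3.74 with that floor, against 0.03; lowest adjusted p 0.755). In YFP- cells of day 90 all 8 were higher in marrow than in spleen, each at an unadjusted edgeR p under 0.05 (8.65% of all genes were). The median there was 4.10, or 3.92 with that floor, against -0.01 (lowest adjusted p 0.171). Among YFP+ cells of day 90, 4 were higher and 4 lower in marrow. At day 5, 3 were higher and 5 lower in YFP-, and 2 higher and 6 lower in YFP+ cells.

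Macrophage transcripts other than Lyz2 were more often high in spleen than in marrow. Without Lyz2 the macrophage members summed to at least 10 CPM in 19 of 22 spleen and 7 of 21 marrow libraries, and spleen was the higher in 20 of 21 same-mouse same-sort pairs. The sum was 57.7 to 208 CPM (median 113, n = 7) in spleen YFP+ cells at day 90, above the 3.39 to 161 CPM (median 34.0, n = 8) of YFP- cells in 5 of 6 mice, and 0.918 to 58.1 CPM (median 8.44, n = 7) in marrow YFP+ cells. The lowest of the spleen YFP+ libraries lay just under the highest marrow one. Lyz2, which encodes the lysozyme of macrophages, monocytes and neutrophils, had a count in every library, from 0.225 CPM in spleen YFP+ day 5 07-26 to 1679 CPM in marrow YFP+ day 90 24-week M2 (median 82.6). Between day 90 and day 5 in marrow all 8 macrophage members had a positive difference, 5 at an unadjusted edgeR p under 0.05 (19.0% of all genes were). The median was 4.11 on the log2 scale, or 3.25 with groups at 0 counts set to 3 counts, against -0.00 (lowest edgeR adjusted p 0.0855). In spleen 5 were positive and 3 negative.

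**Figure D4:**
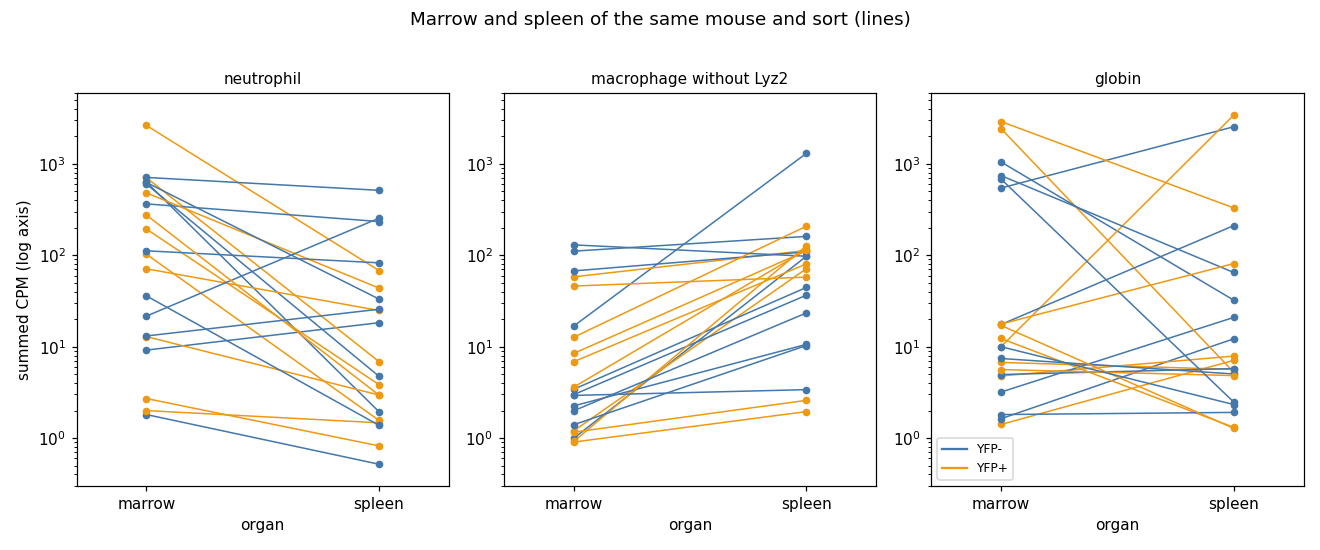
Summed CPM (log axes) of neutrophil members, macrophage members without Lyz2, and globins in marrow and spleen, with lines joining libraries of the same mouse and sort. The neutrophil lines fall towards spleen in 18 of 21 pairs, the macrophage lines rise in 20 of 21, and the globin lines run either way (11 and 10).

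C1qb, a subunit of the first complement component, was the most abundant of the macrophage members after Lyz2. In spleen YFP+ cells at day 90 it was at 18.1 (M2), 44.2 (M3), 65.8 (F15) and 35.1 CPM (F12) in 24-week mice and 46.7 (F2), 32.4 (F7) and 32.9 CPM (F9) in young mice. In marrow YFP+ cells of the same mice it was at 18.0, 22.9, 4.69, 0.114, 0.510, 2.71 and 2.79 CPM, lower in each of the 7, and only the 22.9 of M3 lay above the lowest spleen value. The log2 difference of -3.03 ± 1.16 between marrow and spleen did not pass (edgeR adjusted p = 0.419). The 3 C1q subunits moved together, with C1qb to C1qa at 2.15 to 5.09 and C1qc to C1qa at 1.25 to 3.62 over 16 libraries with at least 50 counts of C1qa, while Lyz2 to C1qa ranged from 0.207 to 52.4 over the same libraries.

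Spleen YFP- day 5 07-26 held C1qb at 555 CPM, C1qc at 348, C1qa at 149, Vcam1 at 93.5, Csf1r (the receptor of the macrophage growth factor M-CSF) at 82.4, Cd5l (a secreted macrophage protein) at 49.8 and Adgre1 (F4/80) at 26.1 CPM. In that library Lyz2 was at 30.8 CPM, below its median. The same library had 2548 CPM of globin and the lowest Sdc1.

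Vcam1 was the macrophage member that passed a test. It encodes an adhesion molecule of splenic and marrow macrophages and of stromal and endothelial cells (ENSMUSG00000027962, chr3:116109949-116129688, minus strand, GRCm38). In spleen YFP+ cells at day 90 it was at 2.96 (M2), 7.86 (M3), 27.4 (F15) and 15.2 CPM (F12) in 24-week mice and at 19.6 (F2), 20.7 (F7) and 9.25 CPM (F9) in young mice. In marrow YFP+ cells it was at 2.26, 3.43, 0.218, 0, 0, 0 and 0.348 CPM in the same order. Spleen was the higher in each of the 7 mice, and the groups overlapped only in that marrow M3 lay above spleen M2. The log2 difference was -5.15 ± 1.14 (edgeR adjusted p = 0.0465, n = 7 and 7). It passed by little: the call was kept without marrow YFP+ 24-week M3 or spleen YFP+ 24-week M2 and lost without any 1 of the other 12 libraries (adjusted p 0.0537 to 0.199), and with limma voom it was lost at 0.0858.

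Vcam1 was also higher in spleen in 8 of 8 mice among YFP- cells of day 90, with 0.509 to 14.0 CPM (median 2.25) in spleen and 0 to 3.37 CPM in marrow. Between the sorts, spleen YFP+ exceeded YFP- in 5 of 6 mice at day 90 (2.05 ± 0.84, edgeR adjusted p = 0.199; with mouse as a block 3.11 ± 0.95, adjusted p = 0.0495, where 4 members and 5.99% of all genes passed) and in 0 of 3 at day 5. With mouse as a block, 5 members passed (1.61% of all genes did) between marrow and spleen YFP+ cells at day 90: Ly6g (3.80) and Lcn2 (5.74) higher in marrow, and C1qc (-4.36), Vcam1 (-5.73) and Csf1r (-4.11) lower, as log2 differences with edgeR adjusted p of 0.00353, 0.0335, 0.0229, 0.00373 and 0.0441. Of the 7 listed genes of stroma and endothelium, 6 did not exceed 1.25 CPM in any library. The other, Pecam1, was at 12.5 to 37.7 CPM (median 21.9), against a median of 1.38 CPM for Vcam1. The part that stromal or endothelial cells have in the Vcam1 levels was not tested.

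Gzma, the protease granzyme A of cytotoxic T and NK cells, was the member with the clearest difference between the sorts and the only one of its lineage present in every library. It lies at chr13:113093825-113100981 on the minus strand of GRCm38 (ENSMUSG00000023132), and shared 0 of its 50-base windows with another gene. In spleen YFP+ cells at day 90 it was at 3.77 (M2), 2.25 (M3), 5.55 (F15) and 13.3 CPM (F12) in 24-week mice and at 3.92 (F2), 4.29 (F7) and 3.84 CPM (F9) in young mice. In spleen YFP- cells it was at 78.5 (M2), 27.5 (M3), 17.4 (F15) and 52.5 CPM (F12) in 24-week mice and at 50.3 (M7), 23.1 (F2), 58.9 (F9) and 3.51 CPM (M2) in young mice. Only the young M2 library of the YFP- sort lay inside the YFP+ range. The log2 difference was -2.94 ± 0.55 (edgeR adjusted p = 8.18e-04, n = 7 and 8), and -2.97 ± 0.32 with mouse as a block (adjusted p = 1.56e-07).

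In marrow at day 90 Gzma was at 5.00 (M2), 3.84 (M3), 3.71 (F15), 26.1 (F12), 3.98 (F2), 7.83 (F7) and 8.48 CPM (F9) in YFP+ cells. In YFP- cells it was at 53.6 (M2), 21.2 (M3), 13.0 (F15) and 38.8 CPM (F12) in 24-week mice and at 38.0 (M7), 17.5 (F2), 21.8 (F9) and 4.47 CPM (M2) in young mice. The difference of -1.65 ± 0.52 did not pass (edgeR adjusted p = 0.197); with mouse as a block it was -1.94 ± 0.32 and passed (adjusted p = 5.65e-04, with 0.963% of all genes), as it did without the 1 high YFP+ library, 24-week F12 (-2.25 ± 0.51, adjusted p = 0.0282). YFP+ was the lower in 12 of 12 same-mouse pairs of day 90 over both organs. Among YFP- cells of day 90 the spleen level was the higher in 7 of 8 mice, and in young M2 the lower.

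At day 5 the order was another one in marrow. Marrow YFP+ libraries were at 22.9, 23.9 and 18.3 CPM and YFP- libraries at 11.4, 23.0 and 8.60 CPM, with YFP+ the higher in 3 of 3 mice. Spleen YFP+ libraries were at 22.6, 29.6, 19.3 and 9.85 CPM and YFP- libraries at 39.8, 71.7 and 17.9 CPM, with YFP+ the lower in 2 of 3 mice. Neither day 5 difference passed (0.60 ± 0.78 in marrow and -1.08 ± 0.71 in spleen; edgeR adjusted p = 1.00 and 0.461). The YFP contrast was not tested between day 90 and day 5. Within the 24-week mice alone the spleen difference at day 90 was -2.80 (adjusted p = 0.0509) and within the young mice alone -3.08 (0.0638), each with fewer libraries.

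**Figure D5:**
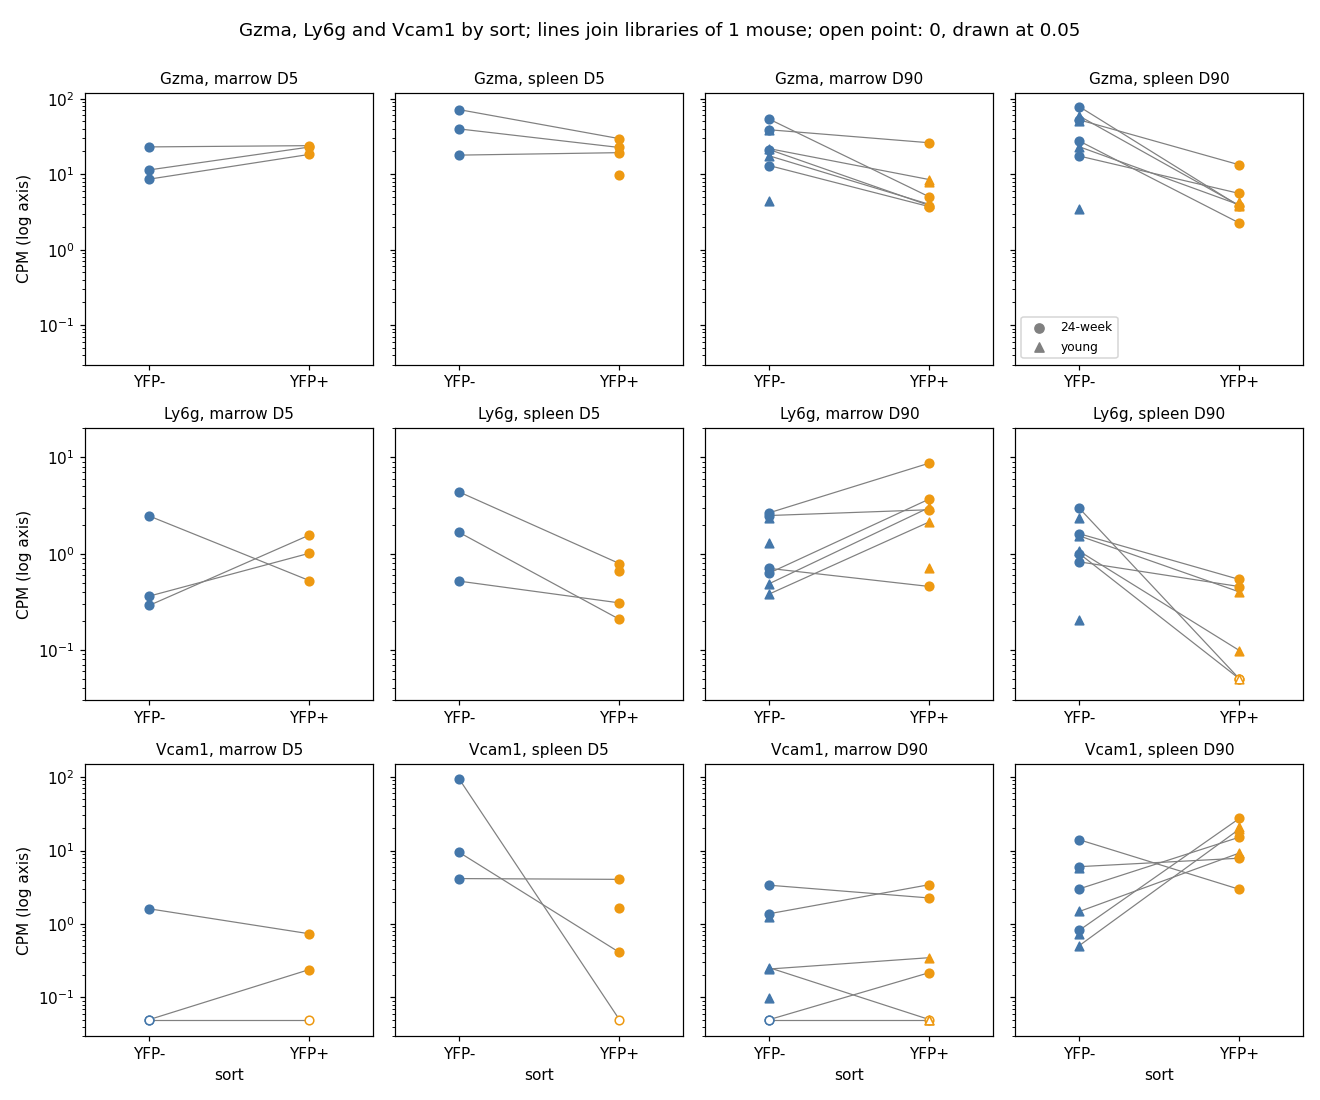
CPM (log axis) of Gzma, Ly6g and Vcam1 in YFP- and YFP+ libraries of marrow and spleen at day 5 and day 90; lines join libraries of 1 mouse, circles are 24-week and triangles young mice, and open points are 0 drawn at 0.05. At day 90 all 12 Gzma lines fall towards YFP+, and in spleen all 6 Ly6g lines fall and 5 of 6 Vcam1 lines rise.

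The other 6 T and NK members were low and overlapped between the sorts. They summed to 0.135 to 13.4 CPM (median 6.46) in spleen YFP+ and 1.48 to 34.6 CPM (median 7.30) in spleen YFP- cells at day 90. The CD3 chains Cd3e, Cd3d and Cd3g, parts of the T cell receptor complex, summed to 0 to 10.6 and 1.17 to 23.7 CPM in these groups. Their sum was higher in YFP+ in 6 and in YFP- in 6 of the 12 same-mouse pairs of day 90 over both organs. The sum of all 6 members was higher in YFP- in 8 of these pairs and in YFP+ in 4. The NK receptors were nearly absent: Ncr1 (NKp46) had 3 counts in 1 library and 0 in 42, and Klrd1 (CD94) was at 0 in 31 libraries and at most 2.37 CPM. Nkg7, a cytotoxic granule protein, was at 0 in 18 libraries and highest in spleen YFP- day 5 07-26 at 20.2 CPM. In spleen YFP- day 90 24-week M2, with 78.5 CPM of Gzma, the other 6 members summed to 3.55 CPM and Cd3e, Cd3d and Ncr1 were at 0. The part that T or NK cells have in the Gzma levels was not tested.

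None of 15 further T and NK genes passed between YFP+ and YFP- spleen at day 90 (edgeR, 9 tested, lowest adjusted p 0.0832). At an unadjusted edgeR p under 0.05 were 4 of the 9, against 15.3% of all genes. A negative difference was found in 8 of the 9, with a median of -1.13 on the log2 scale against -0.01 over all genes. Among these 15, chosen after their values were seen, Prf1 (perforin) had a count in all but 1 library (median 8.43, highest 40.9 CPM). Il2rb (a chain of the receptors for IL-2 and IL-15) had a count in every library (median 7.26 CPM). The T cell genes Cd4 (median 2.96 CPM), Lck (2.64) and Cd8b1 (1.55) were at 0 in 1, 4 and 5 libraries. Klrb1c (NK1.1) was at 0 in 42 libraries and Gzmb in 40.

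Either basophil member exceeded 1 CPM in 3 of the 43 libraries, all of them marrow YFP-. Mcpt8 and Prss34, serine proteases of basophil granules, were at 562 and 2236 CPM in day 5 07-26, at 88.1 and 240 CPM in day 90 24-week M3 and at 47.7 and 150 CPM in day 90 24-week F15. These 3 libraries held 99.8% of the summed CPM of each gene, and the ratio of Prss34 to Mcpt8 was 3.98, 2.72 and 3.15. In the other 40 libraries Mcpt8 did not exceed 0.593 and Prss34 0.723 CPM. The marrow YFP+ libraries of these mice were among them. All 6 further basophil and mast cell genes were highest in day 5 07-26, at 9.85 to 170 CPM. DESeq2 called Prss34 between the sorts at day 90 in both organs and between the organs in YFP- cells of day 5. It also called Prss34 between days in spleen and between ages in marrow, and Mcpt8 between the sorts in marrow at day 90. No spleen library held more than 0.564 CPM of Prss34, and these calls are not read as differences. With edgeR, neither basophil member passed in any of the 13 comparisons (edgeR adjusted p of 0.124 or more, and voom 0). With mouse as a block at least 1 of them passed in 4 comparisons with marrow YFP- cells, the sorts at day 90 (0.963% of all genes passed) and day 5 (0.0161%) and the organs at day 90 (0.995%) and day 5 (0.0482%), all of which rest on the 3 libraries and have groups at or near 0 on the other side; no fold or p is given for them.

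The libraries high in 1 lineage were only partly those high in another. Marrow YFP- day 5 07-26 combined basophil genes, Mpo, 544 CPM of globin and a neutrophil sum of 602 CPM. Spleen YFP- day 5 07-26, from the same mouse, combined macrophage genes, globin and the highest Cd3d (9.98 CPM), Cd3g (17.3 CPM) and Nkg7, with a neutrophil sum of 4.74 CPM and 0.499 CPM of Prss34. The YFP+ libraries of that mouse had neutrophil sums under 10 CPM and globin sums of 6.73 and 5.64 CPM in marrow and spleen.

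Of the further lists of other cells, 2 more genes that passed are described. Prg2, the eosinophil major basic protein, rose in spleen YFP+ cells at day 90 (1281 to 3043 against 455 to 1127 CPM, 1.26 ± 0.29, edgeR adjusted p = 0.00759). It was at 410 CPM or more in every library, while the eosinophil genes Epx and Siglecf were at 0 in 42 of 43. Ccr3, the other gene of that list, was at 0 in 11 libraries (median 0.704 CPM) and reached 96.7 CPM in spleen YFP- day 5 07-26. Ccr9, a chemokine receptor listed for plasmacytoid dendritic cells, rose in marrow YFP+ cells at day 90 (13.0 to 30.7 against 2.39 to 11.3 CPM, 1.64 ± 0.37, edgeR adjusted p = 0.0222). Platelet genes were near 0: 5 of 6 listed did not exceed 1.07 CPM.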

How the data were processed

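The authors deposited 1 table of estimated counts per gene for 44 libraries, made from total RNA with the SMART-Seq v4 Ultra Low Input and Nextera XT kits per the labels' protocols, with immunoglobulin genes left out. Listed in the submitters' processing notes, with no role given, are the builds GRCm38 and GRCm39, DESeq2 (1.26.0), RSEM (1.3.1) and STAR (2.6.1b); strandedness is not given in the sources used here, so reads of Mpo, Prtn3, Alas2, Vcam1, Csf1r and Cd3e cannot be told from those of genes overlapping them on the other strand. Coordinates are from GENCODE M21 (GRCm38), matched by gene ID.

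Values were rounded (3.1% were not whole). The 43 grouped libraries were fitted in edgeR 4.0.16 (R 4.3.3): TMM scaling, genes kept by filterByExpr at a minimum count of 10, a mean for each of 12 groups, robust quasi-likelihood test, Benjamini-Hochberg adjustment; 1362 rows with an ID but no gene name stayed in. Ages were weighted equally at day 90, and sorts in comparisons of days and ages. CPM are TMM-scaled. The coefficient of variation between libraries of a group was 0.425. The model was tested on simulated data with the same spread for every gene, which does not cover genes as sporadic as most members. Libraries of a group come from different mice. Libraries sharing a mouse (from the titles; at day 5 a shared date stands for the mouse, which the labels do not state) had correlated deviations from their group means (median 0.181 over 57 pairs, against -0.0128 over 789 pairs of different mice), so a fit with mouse as a block was an alternative. The others were DESeq2 1.42.0 size factors, no filter, at least 5 CPM in 3 libraries, the compared groups alone, limma 3.58.1 voom, a DESeq2 Wald test and leaving out each library; each age alone and leaving out the 3 libraries lowest in Sdc1 were added after seeing the data.

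The members, further lists and tests were chosen with earlier results of these data known. Every member is described; values in each library are given for members that passed and for the leading member of a lineage. Of further lists, up to 3 passing genes per comparison are named (1 is not reported here), along with genes said to be chosen after their values were seen. The library in no group entered no comparison.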

Additional observations from a re-analysis of the deposited data

Results flagged for a closer look

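Of 55 sums and levels tested in groups of 4 libraries, 11 had a library far from the other 3, where chance gives about 1 in 20 for normally distributed values; these sums are skewed, and some of the 11 share values, as Gzma and the T and NK sum of F12 do. In marrow YFP- cells of young mice at day 90, M7 had a neutrophil sum of 711 CPM (others 13.1 to 36.0), a macrophage sum of 706 CPM (24.4 to 76.1) and 1.24 CPM of Vcam1 (0.0994 to 0.254), and M2 an erythroid sum of 691 CPM (5.47 to 122). The erythroid sum also stood apart in spleen YFP+ day 5 09-15 at 469 CPM (5.97 to 9.76) and in spleen YFP+ day 90 24-week M3 at 3432 CPM (2.63 to 333). In marrow YFP+ cells of 24-week mice at day 90, F12 had 26.1 CPM of Gzma (3.71 to 5.00) and a T and NK sum of 26.7 CPM (3.71 to 5.12). The lowest library stood apart once, with a neutrophil sum of 0.822 CPM in spleen YFP+ day 5 09-01 (1.44 to 1.56). Basophil sums of 0.109 CPM in marrow YFP+ day 90 24-week F15 and 0.110 CPM in spleen YFP- day 90 24-week M3 were apart only because the others were at 0, and lie under the limit of 3 counts.

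The marrow library of mouse 09-15 that was put in no group, and so entered no comparison, had a neutrophil sum of 214 CPM, an erythroid sum of 23.3, a macrophage sum of 198 and a T and NK sum of 20.9 CPM, each above the limit of 3 counts. Its Gzma was at 2.69 CPM and its CD3 chains at 15.8 CPM, and basophil genes were at 0.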

How the results depend on the processing

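The directions of Gzma, Ly6g and Vcam1 were kept in all alternatives run for the 4 results that passed. Gzma in spleen stayed past the threshold in 23 of 25 alternatives (log2 difference -3.29 to -2.65, adjusted p 1.56e-07 to 0.0638) and was lost within each age alone. Ly6g was lost in 9 of 24 alternatives between the sorts in spleen (-3.56 to -2.46) and in 8 of 23 between the organs (3.31 to 4.51), and Vcam1 between the organs in 16 of 24 (-7.10 to -3.20). The cause was not tested beyond the libraries left out. Counts of members called moved more. Between the sorts in spleen at day 90 the 2 became 1 with the stricter filter, 4 with the replicate block (mouse), 7 with the DESeq2 Wald test, 0 in each age alone, and 1 to 2 leaving out 1 library. In marrow at day 90 the 0 became 2 with the block, 3 with DESeq2 and 0 to 1 leaving out a library; at day 5 it became 2 with the block in marrow, and 5 with DESeq2 or 0 to 5 leaving out a library in spleen. Between the organs, the 2 of YFP+ cells at day 90 became 1 with no filter, the stricter filter or voom, 5 with the block, 6 with the compared groups alone, 7 with DESeq2, 0 in each age alone and 0 to 2 leaving out a library. The 0 of YFP- cells at day 90 became 1 with the block and 2 with DESeq2. At day 5, YFP+ cells had 4 with DESeq2, and YFP- cells 2 with the block, 5 with DESeq2 and 0 to 8 leaving out a library. DESeq2 called 10 members between days in marrow, 6 in spleen, 2 and 4 between ages, and 2 for the difference of the YFP contrast. Some of the DESeq2 calls rest on groups near 0, within day 5 and at day 90, as described above. The same holds between days in spleen, where Prss34 had a DESeq2 log2 difference of -10.40 with basophil sums of at most 0.676 CPM. Between ages in marrow the 2 DESeq2 calls were Nkg7 (-10.06) and Prss34 (11.95). At depths of 6643295 to 12663103 counts, members under 0.234 to 0.439 CPM are not told from 0.

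The replicate block is the mouse and was fitted for comparisons within mice; days and ages were compared between mice. With it, 2 members passed between the sorts in marrow at day 90 (Gzma and Prss34), 4 in spleen (Gzma, Ly6g, Vcam1 and Adgre1), and 5 between marrow and spleen YFP+ cells, where the block passed 0.963%, 5.99% and 1.61% of all genes, against 0.458%, 3.53% and 0.193% without it.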
